A study of Homo sapiens with 12 samples.

Results

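Small RNA of extracellular vesicles (EV) shed by cardiac progenitor cells (CPC-EV) was compared with that of the human induced pluripotent stem cells from which the progenitors were made (hiPSC-EV). The comparison comprised 6 of the 12 small RNA libraries of the series, selected by their stage labels, with 3 CPC-EV libraries at day 6 of cardiac differentiation and 3 hiPSC-EV libraries at day 0. All 6 came from a single established hiPSC line, iPS(IMR90)-4, made from IMR90 fibroblasts, and each library of a stage came from a separate culture. Pluripotent cells were kept in TeSR-E8 expansion medium, which was conditioned for 24 h. Progenitor cells had received CHIR99021 (an activator of Wnt signalling), Activin A and ascorbic acid, then IWR-1 (a Wnt inhibitor), in RPMI with B27 without insulin, and their differentiation medium was conditioned for 72 h. EV were separated on an OptiPrep density gradient. Medium and conditioning time changed together with the stage, so the 3 cannot be told apart, and p-values measure the spread between these preparations of 1 line.

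EV are membrane-bound particles through which cells release part of their small RNA. A miRNA guides Argonaute proteins to messenger RNA that pair with its seed, the bases near its 5′ end, so miRNA with the same seed can share targets. In human pluripotent cells the miR-302/miR-367 cluster and the primate-specific cluster on chromosome 19 (C19MC) are characteristic, whereas miR-1 and miR-133a are the classical miRNA of heart and skeletal muscle and miR-143 and miR-145 those of smooth muscle and other mesoderm. EV RNA is a bulk sample: fewer EV of a kind and less RNA per EV cannot be told apart.

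Reads had been assigned to 5 classes: miRNA, tRNA, piRNA, circular RNA and gencode transcripts. The counts on miRNA ranged from 703418 (hiPSC-EV 1) to 5598296 (hiPSC-EV 3) in hiPSC-EV and from 1539043 to 3380609 in CPC-EV. Values are given in CPM (counts scaled to a common total of the class) after TMM scaling (trimmed mean of M-values, which corrects for library composition). Features without a count in one group were given a bound measured against 3 counts. For miRNA these came to between 0.650 and 4.11 CPM depending on the library. They are not a detection limit, as single counts were kept. A feature was called when the false discovery rate (FDR) of edgeR's quasi-likelihood test was at most 0.05 and the log2 fold change of CPC-EV over hiPSC-EV at least 1 in either direction. Features were tested at 5 CPM or more in all 3 libraries of at least 1 group, so that one with a library below 5 CPM in its lower group passed only through the group where it was high, and its direction was largely fixed by this filter. Among stage transcripts, fragments of the embryonic stem cell RNA ESRG lay at 1805, 2192 and 799 CPM in hiPSC-EV and 30.8, 81.6 and 2.05 CPM in CPC-EV, and those of MYOCD, a cofactor of cardiac gene expression, at no count in hiPSC-EV and 122, 55.8 and 145 CPM in CPC-EV. Both passed the filter only through the group where they were high, and are examples from lists described below.

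The miRNA on which the comparison turned are shown with their mature sequences, 5′ to 3′, as listed by RefSeq on GRCh38.p14, with the seed (bases 2 to 8) in capitals. A sequence was found for 978 of the 1133 miRNA of the count table, for 295 of the 338 tested and for 85 of the 93 called. First come the pluripotency-associated miRNA that share the seed of the miR-302 family, to show that a member of C19MC carries it too.
miR-302a-3p: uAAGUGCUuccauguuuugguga
miR-302b-3p: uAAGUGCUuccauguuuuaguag
miR-302c-3p: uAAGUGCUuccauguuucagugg
miR-302d-3p: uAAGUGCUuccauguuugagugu
miR-372-3p: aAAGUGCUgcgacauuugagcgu
miR-520a-3p: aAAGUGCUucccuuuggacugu
The following share the closely related seed of the miR-17 family, and derive from 3 different clusters.
miR-17-5p: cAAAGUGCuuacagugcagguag
miR-20a-5p: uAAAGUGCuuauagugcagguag
miR-106a-5p: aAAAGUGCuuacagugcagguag
miR-106b-5p: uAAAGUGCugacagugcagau
miR-93-5p: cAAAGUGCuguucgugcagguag
The next miRNA derive from the same clusters as those above but share another seed, that of the miR-92 family.
miR-92a-3p: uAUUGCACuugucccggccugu
miR-363-3p: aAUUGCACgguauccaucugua
miR-25-3p: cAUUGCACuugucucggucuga
miR-367-3p: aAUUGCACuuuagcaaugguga
The miR-99/miR-100 and miR-125 families are shown because some of their abundant members rose in CPC-EV.
miR-99a-5p: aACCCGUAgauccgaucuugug
miR-99b-5p: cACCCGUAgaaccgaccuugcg
miR-100-5p: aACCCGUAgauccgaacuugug
miR-125a-5p: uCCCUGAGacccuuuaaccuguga
miR-125b-5p: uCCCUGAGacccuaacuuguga
The following pairs, miR-146 and miR-200, have identical seeds within the pair and changed in opposite directions.
miR-146a-5p: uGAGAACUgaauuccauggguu
miR-146b-5p: uGAGAACUgaauuccauaggcug
miR-200b-3p: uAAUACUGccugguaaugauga
miR-200c-3p: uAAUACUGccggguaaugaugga
The last set holds examples of miRNA described below, some abundant and some nearly absent from one group.
miR-182-5p: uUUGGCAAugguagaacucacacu
miR-183-5p: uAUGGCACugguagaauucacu
miR-221-3p: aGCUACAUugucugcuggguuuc
miR-222-3p: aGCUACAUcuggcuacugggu
miR-21-5p: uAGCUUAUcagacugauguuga
let-7a-5p: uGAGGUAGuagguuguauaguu
miR-1-3p: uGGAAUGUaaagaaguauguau
miR-133a-3p: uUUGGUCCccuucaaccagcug
miR-143-3p: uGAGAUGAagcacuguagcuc
miR-145-3p: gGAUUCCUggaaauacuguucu
miR-10a-5p: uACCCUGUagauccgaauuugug
miR-375-3p: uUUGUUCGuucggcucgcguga
miR-122-5p: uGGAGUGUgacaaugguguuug
miR-127-3p: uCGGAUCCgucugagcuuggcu
miR-1263: aUGGUACCcuggcauacugagu

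A small number of miRNA held most of the counts in every library. The 10 most abundant took between 68.7% (CPC-EV 3) and 74.3% (CPC-EV 2) of miRNA counts, and 4 or 5 miRNA sufficed for 50%. miR-302b-3p led all 3 hiPSC-EV libraries, with 20.4%, 17.1% and 16.7% of miRNA counts. Its neighbour in the same cluster, miR-302a-5p, led CPC-EV 1 (15.5%) and CPC-EV 2 (26.4%), whereas miR-92a-3p led CPC-EV 3 (12.0%), followed by miR-99b-5p. miR-92a-3p itself held 11.3% ± 1.79 (SD, n = 3) in hiPSC-EV and 11.6% ± 1.24 in CPC-EV.

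Of 338 tested miRNA, 93 (27.5%) were called, 39 of them higher (11.5% of those tested) and 54 lower (16.0%) in CPC-EV. All 93 had groups that did not overlap, against 170 (50.3%) of all tested miRNA. Among the called miRNA, 2 of those higher had no count in any hiPSC-EV library and 20 of those lower had none in any CPC-EV library. These numbers can depend on depth and do not compare loss with gain. hiPSC-EV 3 held 5598296 miRNA counts, against at most 3380609 in a CPC-EV library. Among hiPSC-EV libraries, miR-122-5p, miR-127-3p, miR-370-3p, miR-483-5p and miR-483-3p, all called higher, had counts in hiPSC-EV 3 only. Such cases were not counted for CPC-EV. Over all tested miRNA the median log2 fold change was -0.27, and it lay between -0.28 and -0.10 under the other scalings. This median is the reference for the family medians below, and the shares of 11.5% and 16.0% are the reference for the counts of called members. The plot of level against change shows the abundant called miRNA within a few log2 units of 0 and the largest changes among miRNA of low level.

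**Figure D1:**
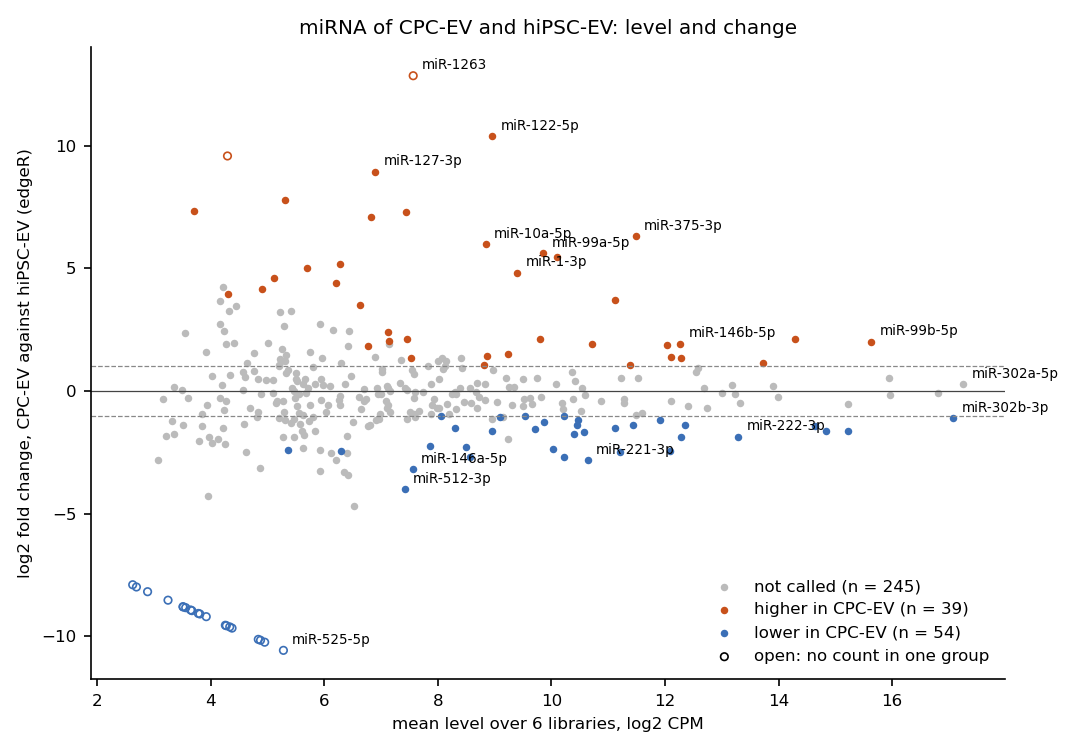
Each point is 1 of 338 tested miRNA, with its mean level over the 6 libraries (log2 CPM) on the x axis and its log2 fold change, CPC-EV over hiPSC-EV, on the y axis; orange marks the 39 called higher and blue the 54 called lower, and dashed lines mark a log2 fold change of 1 in either direction. Open symbols had no count in one group, so that their fitted height depends on the method, and the row of open blue points at the lower left are the 20 called miRNA without a count in CPC-EV.

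The pluripotency-associated cluster miR-302/miR-367 was reduced in part. It lies on chromosome 4, with miR-302b-3p at chr4:112648489-112648511 (minus strand, GRCh38) within an exon of the noncoding host gene MIR302CHG. Of 10 tested members of the miR-302/miR-367 list, 3 were called lower, against 16.0% of all tested miRNA, and none higher. The median log2 fold change of the list was -0.76. The list includes miR-302e, which is not part of this cluster. Over the 9 tested members of the cluster the median was -0.59. miR-302b-3p reached 196055, 170102 and 202533 CPM in hiPSC-EV and 99320, 94394 and 69551 CPM in CPC-EV. Every hiPSC-EV library lay above every CPC-EV library, and the log2 fold change was -1.11, SE 0.18 (FDR = 0.00463). Both arms of miR-302c fell as well, by 1.20 for miR-302c-3p and 1.17 for miR-302c-5p on the log2 scale. miR-302a-5p, by contrast, measured 119916, 132607 and 169374 CPM in hiPSC-EV and 146883, 283301 and 84437 CPM in CPC-EV. The CPC-EV libraries surrounded those of hiPSC-EV, so it was not called (0.29, SE 0.40, FDR = 0.662). As a share of miRNA counts the whole list took 32.4% ± 1.31 (SD, n = 3) in hiPSC-EV and 26.6%, 35.9% and 18.5% in CPC-EV 1, 2 and 3, which surround it. Without CPC-EV 3 no member was called. miR-302b-3p then changed by -0.92, and by -0.99, also short of the threshold of 1, with median-of-ratios factors, library size alone or DESeq2.

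C19MC and the miR-371/miR-373 cluster lie near each other on chromosome 19, and both mark human pluripotent cells. Of 10 tested members of C19MC, 5 were called lower and none higher (median log2 fold change -3.57, or -3.32 with members absent from CPC-EV set to their bound). Except for miR-1323 and miR-516a-5p these members passed the expression filter only through hiPSC-EV, so that their direction and the median were largely fixed by it. miR-1323 lay at 2796, 1835 and 1564 CPM in hiPSC-EV and 359.8, 405 and 209 CPM in CPC-EV. The groups were far apart, and the log2 fold change was -2.67, SE 0.33 (FDR = 0.00156). miR-512-3p, located at 2 copies of its gene within the cluster (chr19:53666729-53666750 and chr19:53669213-53669234, plus strand), had 339.5, 278 and 347 CPM in hiPSC-EV and 0, 19.7 and 40.8 CPM in CPC-EV. Its change of -3.99, SE 1.11 passed narrowly (FDR = 0.0465), and it was called under 4 of 14 alternatives. No CPC-EV library held a count of miR-525-5p, miR-520a-5p or miR-520a-3p, whose levels were thus lower by at least 45.9-fold, 22.6-fold and 11.2-fold, measured against 3 counts in the CPC-EV library where these come to the most CPM. None of the 3 tested members of miR-371/miR-373 was called: miR-371a-5p lay at 798, 1103 and 1594 CPM in hiPSC-EV and 1540.5, 1602 and 1542 CPM in CPC-EV, and the median was 0.89. C19MC calls rose to 11 of 18 tested members without hiPSC-EV 1, the shallowest library, and numbered 4 to 7 in the remaining alternatives of scaling or a library left out.

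The 3 paralogous clusters miR-17-92 (chromosome 13), miR-106a-363 (chromosome X) and miR-106b-25 (chromosome 7) are known for promoting proliferation. In the lists of these clusters, of 10, 9 and 6 tested members, 2, 3 and 1 were called lower and none higher. The medians of the lists were -0.30, -1.27 and -0.16. miR-92a-2-5p, from the chromosome X cluster, was counted in both of the first 2 lists. Over the 9 tested members on chromosome 13 the median was -0.39. For miR-17-92 and miR-106b-25 these shares and medians lay near those of all tested miRNA (16.0% called lower, median -0.27). The called members with the miR-17 seed were miR-106a-5p (-1.67), miR-93-5p (-1.61), miR-20a-5p and miR-17-5p (-1.01), all in the same direction. miR-106b-5p, with the same seed, was not called (0.13, SE 0.41). Among the members with the miR-92 seed, miR-363-3p lay at 53020, 52759 and 67787 CPM in hiPSC-EV and 21236, 18329 and 16878 CPM in CPC-EV. It was lower in all 3 CPC-EV libraries, by a narrow spread within each group (-1.62, SE 0.18, FDR = 0.000716). miR-92a-3p, at 124048, 116855 and 113740 CPM in hiPSC-EV and 119347, 109465 and 103354 CPM in CPC-EV, overlapped between groups (-0.09, SE 0.14). miR-106a-3p, the other arm of miR-106a, was absent from CPC-EV and lower by at least 16.3-fold. Without CPC-EV 3 no member of miR-17-92 was called, and the single call in miR-106b-25 was lost without hiPSC-EV 3 or any one CPC-EV library.

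The sensory and epithelial cluster miR-183/miR-96/miR-182 on chromosome 7 fell together. Of 5 tested members 4 were called lower, against 16.0% of all tested miRNA. The median was -1.51, and the share of the cluster in miRNA counts was 7.75% in hiPSC-EV and 2.97% in CPC-EV. miR-183-5p had 27696, 40058 and 65349 CPM in hiPSC-EV and 15002, 15360 and 12255 CPM in CPC-EV. The hiPSC-EV libraries were spread more widely than those of CPC-EV but did not overlap with them (-1.64, SE 0.30, FDR = 0.00694). miR-182-5p, at 26661, 36404 and 48905 CPM and 13404, 16033 and 11812 CPM in the same order, behaved alike (-1.44, SE 0.25, FDR = 0.00568). miR-96-5p and miR-183-3p fell by 1.54 and 1.51 on the log2 scale. Without CPC-EV 1, and likewise without CPC-EV 3, 2 of the 5 were called.

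A further set of abundant miRNA was lower in CPC-EV. miR-221 and miR-222, neighbours on chromosome X (miR-222-3p at chrX:45747036-45747056, minus strand, in an intron of MIR222HG) with a shared seed and known to restrain the cell cycle inhibitor CDKN1B, gave 3 calls of 4 tested members, all lower, in every scaling and with any library left out (median -1.62). miR-222-3p measured 18398, 14780 and 14002 CPM in hiPSC-EV and 4494, 4877 and 3631 CPM in CPC-EV. The distance between groups exceeded the spread within them several times (-1.86, SE 0.19, FDR = 0.000681). miR-221-3p fell by 2.83 and miR-221-5p by 1.38 on the log2 scale. miR-21-5p, an abundant miRNA of many proliferating and stressed cells, lay at 6857, 6245 and 10413 CPM in hiPSC-EV and 2486, 1988 and 1881 CPM in CPC-EV. All 3 CPC-EV libraries were below all hiPSC-EV libraries (-1.89, SE 0.24, FDR = 0.00156). miR-335-3p, in an intron of MEST, fell by 1.40 on the log2 scale (FDR = 0.00184), and fragments of MEST itself were absent from CPC-EV, at least 17.1-fold below the 108, 27.5 and 28.5 CPM of hiPSC-EV. miR-378a-3p and miR-378i were both lower (-2.47 and -2.39, the latter in only 2 of 14 alternatives), as was miR-1298-5p (-2.68), which lies in an intron of the serotonin receptor gene HTR2C. Absent from every CPC-EV library, miR-135a-2-3p was lower by at least 36.5-fold and miR-605-3p by at least 34.7-fold.

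miR-486-5p, a miRNA of red blood cells and muscle, lay at 6258, 7059.7 and 8779 CPM in hiPSC-EV and 1324, 1045 and 1731 CPM in CPC-EV. It was lower in all CPC-EV libraries (-2.43, SE 0.24, FDR = 0.000664). Of the list of blood miRNA (miR-486, miR-451a, miR-144, miR-223 and miR-150) only the 2 arms of miR-486 reached the level for testing (5 CPM in all 3 libraries of a group), with 1 call.

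let-7 miRNA, which accumulate as pluripotent cells differentiate and are held back by LIN28, stayed at a low level in both groups. The list took 0.183% of miRNA counts in hiPSC-EV and 0.0552% in CPC-EV. Of 6 tested members 1 was called lower, near the 16.0% of all tested miRNA called lower. let-7a-5p measured 1287, 1618 and 2355 CPM in hiPSC-EV and 336, 345 and 356 CPM in CPC-EV. It was lower in all 3 CPC-EV libraries (-2.34, SE 0.27, FDR = 0.00102). let-7e-5p, encoded beside miR-99b and miR-125a, had 0, 25.3 and 27.3 CPM and 37.8, 33.9 and 106 CPM, and although the groups did not overlap it was not called (1.72, SE 1.30, FDR = 0.395). Without hiPSC-EV 1, 3 members were called. Fragments of LIN28A, the RNA-binding protein that blocks let-7 maturation, were not called, at 226, 239.9 and 401 CPM and 104, 265 and 416 CPM.

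**Figure D2:**
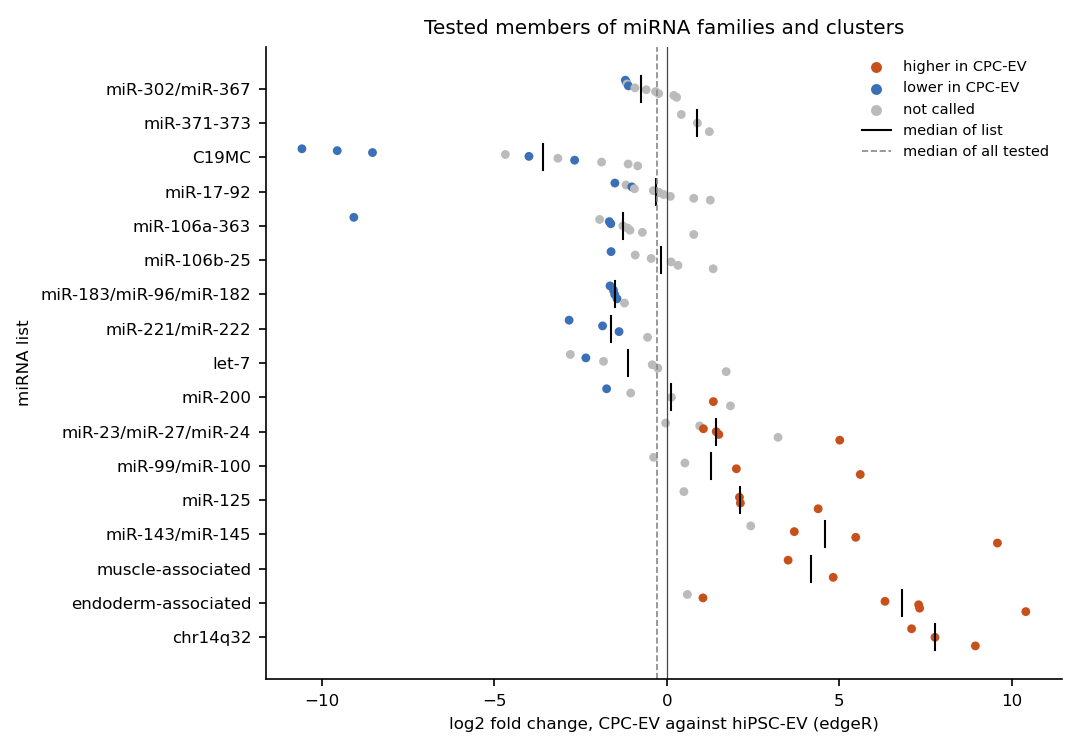
Each point is 1 tested miRNA, placed by its log2 fold change, CPC-EV over hiPSC-EV, on the x axis in the row of its family or cluster, with orange for called higher, blue for called lower and grey for not called; a black tick marks the median of the list and the dashed line the median of all tested miRNA (-0.27). C19MC, miR-183/miR-96/miR-182 and miR-221/miR-222 hold called members to the left only, miR-99/miR-100, miR-125, miR-143/miR-145, endoderm-associated and chr14q32 miRNA to the right only, and miR-200 holds 1 on each side.

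The miR-99/miR-100 and miR-125 families gained a large share of the counts. They are encoded next to each other at 3 genomic sites and are known from blood stem cells and from differentiating tissues. miR-99b-5p (chr19:51692618-51692639, plus strand, in an intron of SPACA6) had 18950, 17597 and 23782 CPM in hiPSC-EV and 74185, 75008 and 95007 CPM in CPC-EV. Each CPC-EV library lay above every hiPSC-EV library (2.02, SE 0.19, FDR = 0.000482). miR-125a-5p, from the same site (chr19:51693268-51693291), rose in parallel, from 7399, 7579 and 7253 CPM to 28976, 26303 and 42252 CPM (2.13, SE 0.21, FDR = 0.000621). From the site on chromosome 21, miR-99a-5p went from 34.2, 37.1 and 40.1 CPM to 1318, 781 and 3361 CPM. It differed more than any other member of these families (5.61, SE 0.51, FDR = 0.000689), and miR-125b-2-3p, which only the chromosome 21 copy of miR-125b yields, was called higher after passing the filter only through CPC-EV (4.39, SE 1.06). From the site on chromosome 11, in introns of MIR100HG, miR-100-5p was not called, with 2073, 1559 and 2283 CPM in hiPSC-EV and 2374, 2036 and 4109 CPM in CPC-EV, and fragments of MIR100HG were not called either (0.11, SE 0.62). miR-125b-5p, which the chromosome 11 and 21 copies both yield, rose by 2.11 on the log2 scale. Together miR-99/miR-100 took 2.10% of miRNA counts in hiPSC-EV and 9.13% in CPC-EV, and miR-125 took 0.745% and 3.65%.

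Several miRNA of muscle and mesoderm were higher in CPC-EV, and miR-199b-5p was lower. Also lower were miR-486-5p and miR-378a-3p, described above, the latter linked by the paper to muscle development. Of 12 rows of the muscle list, only miR-1-3p and miR-133a-3p were tested. Both were called higher, against 11.5% of all tested miRNA. miR-1-3p lay at 41.1, 33.6 and 62.8 CPM in hiPSC-EV and 959, 989 and 1972 CPM in CPC-EV. All CPC-EV libraries were far above the highest hiPSC-EV library (4.82, SE 0.39, FDR = 0.000482). miR-133a-3p, encoded in the same primary transcripts, had 35.6, 10.3 and 3.90 CPM and 129, 109 and 309 CPM (3.52, SE 0.88, FDR = 0.0303). The groups were separate, but it passed the filter only through CPC-EV, and the call was lost without hiPSC-EV 2, hiPSC-EV 3 or CPC-EV 3. Of the 4 tested arms of miR-143 and miR-145 (chr5:149428944-149430720, plus strand, in the noncoding host gene CARMN, a regulator of the smooth muscle and cardiac lineages), 3 were called, all higher, but only miR-143-3p passed the expression filter through both groups, so the direction of the others was largely fixed by it. miR-143-3p measured 242, 272 and 445 CPM in hiPSC-EV and 3022, 2886 and 6548 CPM in CPC-EV (3.69, SE 0.39, FDR = 0.000909). miR-145-3p measured 0, 47.8 and 89.1 CPM and 1820.1, 1616 and 2971 CPM (5.48, SE 0.91, FDR = 0.00815). In both, the groups were separate and CPC-EV 3 was highest. miR-143-5p, absent from hiPSC-EV, was higher by at least 9.58-fold, while miR-145-5p was not called (2.43, SE 0.85, FDR = 0.0824). miR-10a-5p, which lies in an intron of HOXB3 and marks Hox-expressing tissue, had 2.74, 36.7 and 0.867 CPM in hiPSC-EV and 536, 821 and 1358 CPM in CPC-EV (6.00, SE 1.07, FDR = 0.0105), having passed the filter only through CPC-EV. Its relative miR-10b-5p was not called (-1.37, SE 0.85). miR-199b-5p, the only tested member of the miR-199/miR-214 list of mesenchymal miRNA, was lower, from 423, 292 and 435 CPM to 125, 20.6 and 98.3 CPM (-2.24, SE 0.62, FDR = 0.0361), and lost its call with library size alone and without hiPSC-EV 1, 2 or 3 or CPC-EV 3. The miR-126 arms of endothelium showed log2 fold changes of -0.11 and 0.11.

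Of 6 tested miRNA known from endoderm and its derivatives, 5 were called higher (median 6.81). The list counts both arms of miR-483, whose host gene IGF2 is also active in mesoderm. miR-122-5p and the miR-483 arms passed the expression filter only through CPC-EV, which largely fixed their direction and the median. miR-375-3p, characteristic of pancreatic islets and early endoderm, had 30.1, 101 and 76.1 CPM in hiPSC-EV and 6512, 6190.4 and 4257 CPM in CPC-EV. The lowest CPC-EV library was far above the highest hiPSC-EV library (6.32, SE 0.40, FDR = 0.000482). miR-122-5p, the dominant miRNA of hepatocytes, was at 0, 0 and 1.30 CPM in hiPSC-EV and 691, 1570.5 and 718 CPM in CPC-EV (10.40, SE 0.91, FDR = 0.000482). miR-483-5p, from an intron of IGF2, had 0, 0 and 4.98 CPM and 343, 202 and 498 CPM (7.30, SE 1.09), and miR-483-3p with 1 count in hiPSC-EV was 205-fold higher (counting interval 36.8 to 8090.2). miR-192-5p rose by 1.05 on the log2 scale, and miR-194-5p was not called (0.60, SE 0.61). None of the endoderm and liver transcripts of the marker list reached the level for testing: fragments of AFP had no count in any CPC-EV library, those of SERPINA1 had 1 count in CPC-EV 3, and those of APOB had 0, 60 and 111 counts in CPC-EV 1, 2 and 3. Without CPC-EV 1, APOB was tested and called higher (log2 fold change 6.59). The part of another cell type in these changes was not tested.

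From the imprinted 14q32 region, which holds one of the largest human miRNA clusters, 3 of 29 listed miRNA of the table reached the level for testing and were called higher, having passed the filter only through CPC-EV, so that this direction was fixed by the filter. miR-127-3p (chr14:100883035-100883056, plus strand) lay at 0, 0 and 0.867 CPM in hiPSC-EV and 258, 354 and 103 CPM in CPC-EV (8.94, SE 1.10, FDR = 0.00148). miR-370-3p had 3 counts in hiPSC-EV and 84.2, 81.9 and 70.9 CPM in CPC-EV, a ratio of 207 (counting interval 71.0 to 1006). miR-654-3p rose from 0, 1.58 and 2.38 CPM to 174, 328 and 174 CPM (7.09, SE 0.77, FDR = 0.00144). In each of the 3 the hiPSC-EV libraries were at or near 0 and all CPC-EV libraries well above. Without CPC-EV 3, 10 reached the level for testing and 7 were called higher. Fragments of MEG3, the noncoding RNA of the same region, were not called (-0.45, SE 0.87). miR-1263, outside any of these lists, had no count in hiPSC-EV and 418, 418 and 302 CPM in CPC-EV, at least 92.4-fold higher.

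Of the miR-23/miR-27/miR-24 family, 4 of 7 tested members were called, all higher (median 1.43), against 11.5% of all tested miRNA called higher. They were miR-23b-5p (5.01), miR-23b-3p (1.51), miR-24-3p (1.43) and miR-27a-3p (1.06). The count was 2 without hiPSC-EV 2, without CPC-EV 1 or without CPC-EV 3. From a cluster on chromosome X in introns of CLCN5, miR-501-3p rose from 1158, 1459.6 and 2785 CPM to 6182, 5611 and 7986 CPM (1.87, SE 0.34, FDR = 0.00669), and miR-502-3p, with the same seed, by 2.13 on the log2 scale. miR-484 had 1863, 2593 and 2892 CPM in hiPSC-EV and 6569, 5752 and 6645 CPM in CPC-EV, with groups apart (1.37, SE 0.21, FDR = 0.00366). miR-423-5p, at 12165, 8313 and 4781 CPM and 17363, 17704 and 21214 CPM, was called (1.16, SE 0.32, FDR = 0.0305) but kept its call in only 8 of 14 alternatives. None of the tested members of the miR-15/miR-16, miR-130/miR-301, miR-148/miR-152, miR-30, miR-181, miR-26, miR-29 and miR-9/miR-124 lists was called.

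**Figure D3:**
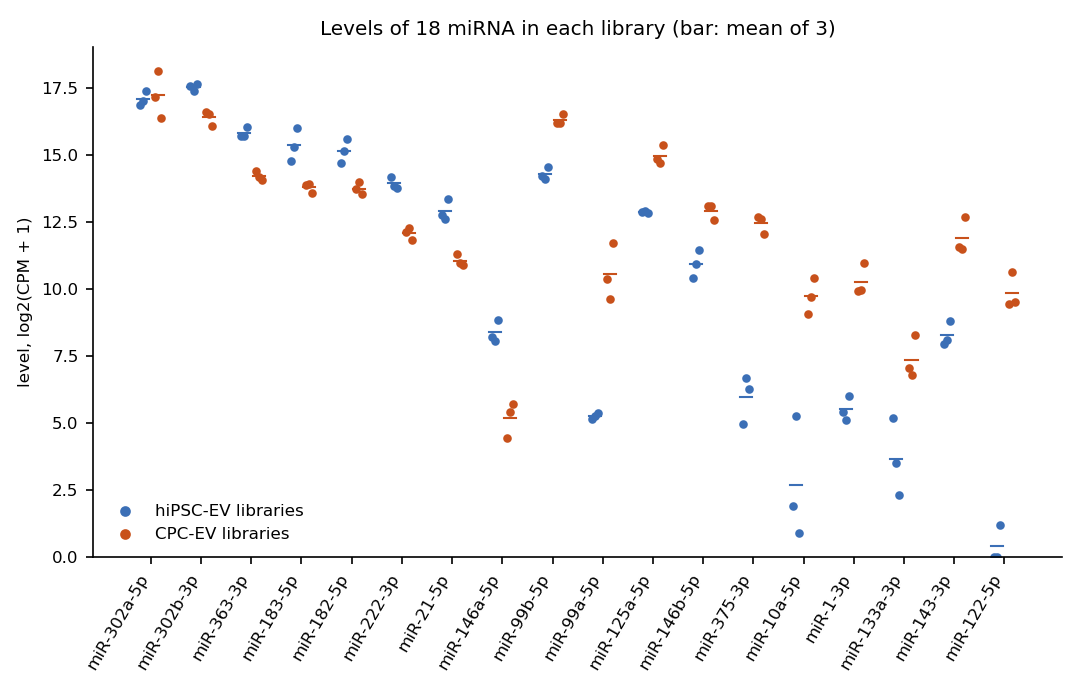
Each point is 1 library, blue for hiPSC-EV and orange for CPC-EV, with the level on a log2(CPM + 1) axis for 18 miRNA of the comparison, and a bar marks the mean of the 3 libraries. The groups are separate for every miRNA shown except miR-302a-5p, and miR-122-5p has no count in 2 of the 3 hiPSC-EV libraries.

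Counts were also summed over all miRNA with the same seed, to compare families as a whole. Of 248 seeds tested, 68 (27.4%) were called, 26 higher and 42 lower. Seed counts had TMM factors of their own, and the median log2 fold change over tested seeds was -0.37, against -0.27 over tested miRNA. miR-183-5p, the only member of its seed AUGGCAC, changed by -1.91 as a seed and -1.64 as a miRNA. Changes of seeds are thus not directly comparable with those of single miRNA. The balance of higher and lower calls depended on the scaling and test. The counts higher and lower were 37 and 33 with library size alone, 44 and 38 with DESeq2, and 33 and 35 with median-of-ratios factors. The seed of miR-302b-3p, AAGUGCU, was carried by 18.8% of miRNA counts in hiPSC-EV and 9.61% in CPC-EV (log2 fold change -1.35, SE 0.20, FDR = 0.00162). With library size alone its change was -0.98, short of the threshold of 1, and its call was lost. The seed of the miR-17 family, AAAGUGC, took 0.781% and 0.314% (-1.74, SE 0.31, FDR = 0.00464). That of miR-221 and miR-222, GCUACAU, took 1.78% and 0.491% (-2.22, SE 0.19, FDR = 0.00019). In the other direction, the miR-99/miR-100 seed ACCCGUA took 2.09% and 9.13% (1.71, SE 0.21), and the miR-125 seed CCCUGAG took 0.742% and 3.63% (1.88, SE 0.23). The seed shared by miR-92a-3p, miR-363-3p and 4 others, AUUGCAC, held 21.6% in hiPSC-EV and 17.1% in CPC-EV.

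Of 106 pairs of tested miRNA with the same seed, 15 pairs had the same call, 2 pairs had opposite calls, and in the others at least 1 member was not called. In the first of these, miR-146a-5p lay at 297, 263 and 461 CPM in hiPSC-EV and 20.3, 41.2 and 50.8 CPM in CPC-EV (-3.18, SE 0.48, FDR = 0.00459). Its partner miR-146b-5p, which differs from it by 2 bases outside the seed in the aligned part, lay at 1368, 1956 and 2810.1 CPM and 8621, 8742 and 6131 CPM (1.94, SE 0.29, FDR = 0.0035). Both are known as regulators of inflammatory signalling, and miR-146b-5p was the more abundant in every library, so the seed as a whole rose (1.46, SE 0.29). In the second pair, of the miR-200 family that keeps cells epithelial, miR-200b-3p on chromosome 1 rose from 3015, 2404 and 2970.0 CPM to 7749, 8587 and 5045 CPM (1.35, SE 0.24, FDR = 0.00604). miR-200c-3p on chromosome 12 went from 1785, 1837 and 2618 CPM to 808, 759 and 299 CPM (-1.74, SE 0.39, FDR = 0.013). miR-141-3p, from the same cluster as miR-200c, was not called (-1.04, FDR = 0.0824). Both pairs kept their opposite calls under every scaling, expression filter and test and with any library left out, and miR-200c-3p lost its call with replicate number as a block (FDR = 0.0898).

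The arms of one precursor could be compared for 62 precursors with both arms tested. In 8 both arms had the same call, in 19 only one arm was called, in 35 neither, and in none were the calls opposite. The sign of the change was the same in 41 of the 62. In 5 of the 8 (miR-143, miR-23b, miR-483, miR-106a and miR-520a) at least 1 arm passed the expression filter only through the group where it was high, which largely fixed its direction. The precursors with both arms called were miR-143, miR-23b and miR-483, higher in CPC-EV, and miR-106a, miR-183, miR-221, miR-302c and miR-520a, lower.

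Among tRNA fragments, 12 of 402 tested features (2.99%) were called, 8 higher and 4 lower in CPC-EV, and 94 had an unadjusted p of at most 0.05. The tRNA class took 8.80% ± 3.66 (SD, n = 3) of the counts of the 5 classes in hiPSC-EV and 7.95% ± 1.12 in CPC-EV. The count table names tRNA by RNAcentral identifier. URS00002D4542_9606 had 14.0, 39.4 and 31.7 CPM of tRNA counts in hiPSC-EV and 887, 593 and 1057 CPM in CPC-EV. This was the feature with the lowest FDR (4.81, SE 0.48, FDR = 0.00322), and it was called under all 13 alternatives, against 6 for URS000063FB43_9606, 7 for URS000042F13F_9606 and 11 for URS0000677B31_9606. URS000063FB43_9606, an abundant feature, had 139332, 222091 and 204218 CPM and 69765, 76229 and 47110 CPM (-1.55, SE 0.31, FDR = 0.0333), and URS0000677B31_9606 had 301, 324 and 336 CPM and 7.24, 5.11 and 12.8 CPM (-5.21, SE 0.65, FDR = 0.00837). URS000042F13F_9606 rose from 6224, 4472 and 2360.4 CPM to 14343, 19551 and 15756 CPM (1.93, SE 0.36, FDR = 0.03). With library size alone as the scaling, 44 were called, of which 72.7% were higher, against 66.7% with TMM and 53.8% of 13 with median-of-ratios factors, and with the counts of all classes as library size 1 was called. Without hiPSC-EV 1 the count was 22, and without CPC-EV 1 or CPC-EV 3 it was 7 and 5.

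Reads assigned to piRNA, a class known from transposon silencing in the germline, took a larger share of the counts in CPC-EV, with 14.8%, 11.9% and 16.2% against 6.95%, 8.39% and 9.13% in hiPSC-EV. The groups did not overlap (exact permutation test, two-sided, p = 0.1, the smallest that 3 against 3 libraries allow). Most of these reads fell on 2 features, piR-33043 (922262 counts in hiPSC-EV and 974057 in CPC-EV, summed over libraries) and piR-33044 (295588 and 676730), so the share is mainly a measure of these, and neither was called within the class (FDR = 0.763 and 0.468). Only 32 piRNA could be tested, of which 2 (6.25%) were called, piR-36770 with 19, 19 and 58 counts in hiPSC-EV and piR-53295 with 20, 9 and 30, and neither had a count in CPC-EV. They were at least 14.5-fold and 10.3-fold lower, and 3 piRNA had an unadjusted p of at most 0.05. Without hiPSC-EV 1, CPC-EV 1, CPC-EV 2 or hiPSC-EV 3 in turn, 19, 5, 7 and 1 piRNA were called. The 1 called without hiPSC-EV 3 was neither of the named piRNA and was higher in CPC-EV, and both named piRNA then lost their call.

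Among 579 tested circular RNA, 3 (0.518%) were called, hsa_circ_0074393, hsa_circ_0074394 and hsa_circ_0128227. They had identical expected counts in every library (46.0, 81.7 and 54.3 in CPC-EV, under 1 in each hiPSC-EV library), so they rest on the same reads and count as 1 observation. Across the tested circular RNA, only 439 of 579 sets of counts were distinct. No circular RNA was called by edgeR's quasi-likelihood test without hiPSC-EV 3, CPC-EV 1 or CPC-EV 2 (146, 194 and 129 at an unadjusted p of at most 0.05), and 129, 13 and 43 were called without hiPSC-EV 1, hiPSC-EV 2 or CPC-EV 3.

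Fragments of gencode transcripts came mostly from short noncoding RNA. Of 3056 tested rows, 337 (11.0%) were called, 136 higher (4.45%) and 201 lower (6.58%) in CPC-EV, and 1231 (40.3%) had groups that did not overlap. These calls depended on the scaling and on single libraries: TMM factors ran from 0.448 (hiPSC-EV 3) to 1.49 (CPC-EV 3), and without either of these libraries no row was called, although 782 and 998 rows had an unadjusted p of at most 0.05. With library size alone 544 were called, of which 69.5% were higher against 40.4% with TMM, and the median log2 fold change moved from 0.11 to 1.10. Directions of abundant RNA are therefore given as shares of the gencode counts as well. Row names stop at the first hyphen in all but 6 of 39666 rows, so a name such as NKX2 can stand for more than 1 gene.

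Y RNA, small noncoding RNA bound by the Ro60 protein whose fragments are common in EV, were abundant among gencode fragments. The largest row, the Rfam family row of Y RNA (RF00019), took 27.7%, 31.3% and 32.8% in hiPSC-EV and 29.7%, 27.8% and 32.4% in CPC-EV, with overlap (exact permutation test, two-sided, p = 0.8). Of the gencode counts, fragments of RNY4 took 8.74%, 9.56% and 10.5% in hiPSC-EV and 6.34%, 5.71% and 5.41% in CPC-EV. Those of RNY3 took 0.651%, 0.673% and 0.585% in hiPSC-EV and 1.79%, 1.74% and 2.34% in CPC-EV. Those of RNY1 took 15.3% ± 1.06 (SD, n = 3) and 15.4% ± 0.663. Thus RNY4 was lower and RNY3 higher in every CPC-EV library (exact permutation test, two-sided, p = 0.1 for each, the smallest possible), with RNY1 overlapping (p = 0.8). After TMM scaling RNY4 was called lower (-1.77, SE 0.45, FDR = 0.0482), RNY1 was not called (-0.98, SE 0.40), and RNY3 was not called (0.61, SE 0.38), and RNY4 kept its call in only 4 of 13 alternatives. With library size alone or the counts of all classes RNY1 changed sign, and 1 of the 3 was called higher. These scalings moved the median of all tested rows to 1.10 and 1.14. The pseudogene rows RNY4P7 and RNY4P10 followed RNY4, with which they may share reads. Fragments of VTRNA1, a vault RNA, took 0.425%, 0.556% and 0.508% in hiPSC-EV and 0.205%, 0.224% and 0.155% in CPC-EV, again without overlap (log2 fold change -2.39, SE 0.44, FDR = 0.0212). For VTRNA2, called after TMM scaling (-2.32, SE 0.43), the plain shares of hiPSC-EV 3 (0.0921%) and CPC-EV 1 (0.104%) overlapped.

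**Figure D4:**
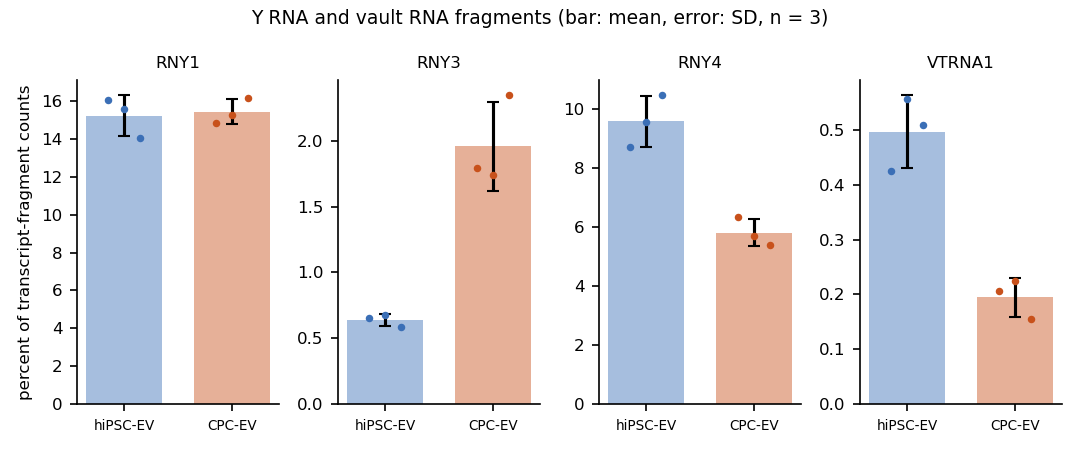
Each panel gives the share of gencode transcript-fragment counts (percent, linear axis from 0) of a Y RNA or vault RNA row, with bars for the mean, error bars for the SD (n = 3) and points for the libraries, hiPSC-EV in blue and CPC-EV in orange. RNY4 and VTRNA1 are lower and RNY3 higher in all 3 CPC-EV libraries, while RNY1 overlaps at about 15% in both groups.

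Nucleolar and spliceosomal RNA fragments changed in part. Of 6 tested H/ACA snoRNA, which guide pseudouridylation, 5 were called lower, all without a count in CPC-EV, the largest bound being that of SNORA75 (at least 28.1-fold), and 5 were also called with library size alone. They passed the expression filter only through hiPSC-EV, so their direction was fixed by it, and 3 were called without hiPSC-EV 2 and 8 without hiPSC-EV 1. Of 49 tested C/D snoRNA, which guide ribose methylation, 9 were called lower (median -0.88, against 0.11 over all tested rows). With library size alone 5 were called in each direction, and the median was 0.12, against 1.10 over all tested rows. In the main scaling 18 C/D snoRNA were called lower without hiPSC-EV 1 and 1 without hiPSC-EV 2, and neither class had a call without hiPSC-EV 3 or CPC-EV 3. RNU11, the snRNA of the minor spliceosome, took 0.0585% ± 0.0132 (SD, n = 3) of the gencode counts in hiPSC-EV and 0.00544% ± 0.00304 in CPC-EV (log2 fold change -4.52, SE 0.59, FDR = 0.0204). Of 13 tested snRNA rows, 2 were called lower, and 1 in each direction with library size alone.

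Fragments of protein-coding transcripts took 12.8% ± 4.29 (SD, n = 3) of the gencode counts in hiPSC-EV and 20.3% ± 1.16 in CPC-EV, with separate groups (exact permutation test, two-sided, p = 0.1, the smallest possible). Of 82 tested histone rows 10 were called, all higher, with 4.45% of all tested rows called higher. Their median was 1.54, against 0.11 over all tested rows, and it was 1.12 to 1.97 with a library left out. With library size alone it was 2.73, against 1.10 over all tested rows. The count of higher histone calls was 28 and 31 with library size alone or the counts of all classes. Under these scalings 378 and 425 of all 3056 tested rows were called higher. The histone count was 6 without hiPSC-EV 2 or CPC-EV 1. Without hiPSC-EV 1, 12 were called higher and 1 lower, and without hiPSC-EV 3 or CPC-EV 3, none. HIST1H4E, a replication-dependent histone H4 gene, lay at 157, 178 and 88.0 CPM in hiPSC-EV and 2776, 3724 and 2144 CPM in CPC-EV. All CPC-EV libraries were far above those of hiPSC-EV (4.36, SE 0.41, FDR = 0.0204). H3F3A, a histone H3.3 gene, rose by 2.03 on the log2 scale together with 3 of its processed pseudogenes, with which it may share reads. Of 196 tested ribosomal protein rows 17 were called, all higher (median 0.85, with 4.45% of all tested rows called higher), among them RPS7 (2.41), RPL6 (2.56), RPL23 (1.81) and RPL17 (1.75), with 3, 4 and 4 calls without hiPSC-EV 2, CPC-EV 1 or CPC-EV 2, and 52 and 54 with library size alone or the counts of all classes. The ribosomal protein rows took 1.02% of gencode counts in hiPSC-EV and 3.71% in CPC-EV. Of 32 tested rows of other translation factors none was called (median 0.03). ANP32B, a histone chaperone, went from 0, 95.2 and 17.3 CPM to 1801, 1392 and 994 CPM (5.18, SE 1.03, FDR = 0.0307), having passed the filter only through CPC-EV.

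Fragments of stage markers are shown in the map of marker levels by library. Of 16 tested rows of pluripotency transcripts 6 were called lower and none higher (median -3.44), with 6.58% of all tested rows called lower. The 6 rows, ESRG included, passed the expression filter only through hiPSC-EV, as did most of the list, so that the count and the median are descriptions. Without CPC-EV 1, 10 rows of the list were called lower (median -6.57), and without CPC-EV 2, 8 (median -5.67). None was called without hiPSC-EV 3 or CPC-EV 3. L1TD1, an RNA-binding protein of pluripotent cells, had 45.8, 198 and 183 CPM in hiPSC-EV and 0, 0.613 and 0 CPM in CPC-EV, with 1 count in CPC-EV in all (ratio 505, counting interval 90.6 to 19930.2). NANOG and the retained-intron rows of POU5F1 and TDGF1 had no count in CPC-EV, at least 7.44-fold, 6.85-fold and 3.99-fold lower, and TERF1 had 1 count. The protein-coding row of POU5F1 lay at 330.3, 266 and 187 CPM in hiPSC-EV and 60.5, 0.613 and 0 CPM in CPC-EV. It was not called (FDR = 0.206). SALL4, SOX2 and LIN28A were found in both groups and were not called.

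Of 31 rows of the mesoderm and cardiac progenitor list, 7 were tested and 5 were called higher, those of MYOCD (2 rows), GATA4, HAND2 and PDGFRA, and all 5 had no count in hiPSC-EV. These rows passed the expression filter only through CPC-EV, where they were high, so their count is a description and not a measure of the list. The retained-intron rows of MYOCD and PDGFRA were too low in CPC-EV for a bound above 1. MYOCD, HAND2 and GATA4 were at least 11.0-fold, 6.71-fold and 4.30-fold higher. The cardiac transcription factor GATA4 lay at 49.9, 50.9 and 25.7 CPM and HAND2 at 40.4, 129 and 27.7 CPM in CPC-EV. The other 2 rows were those of KDR, a receptor of early mesoderm and endothelium, not called (protein-coding row -2.85, SE 1.51). Without hiPSC-EV 2, 3 rows of the list were called higher, without CPC-EV 2, 6 higher and 2 lower, and without hiPSC-EV 3 or CPC-EV 3, none. Of 24 cardiomyocyte rows 5 were tested and called higher (2 without hiPSC-EV 2), and apart from TTN they also passed the filter only through CPC-EV. TTN, the giant spring protein of the sarcomere, had 88.3, 106 and 22.3 CPM in hiPSC-EV and 981, 738 and 1251 CPM in CPC-EV (3.79, SE 0.58, FDR = 0.0204). MYH6, the atrial and fetal myosin heavy chain, had 1 count in hiPSC-EV and 149.8, 66.2 and 129 CPM in CPC-EV (ratio 191, counting interval 34.3 to 7545). The row NKX2 had 3.27, 0 and 1.24 CPM in hiPSC-EV and 94.5, 182 and 151 CPM in CPC-EV (ratio 118, counting interval 32.7 to 975). H19, an imprinted noncoding RNA, was absent from hiPSC-EV and rose by at least 4.33-fold to a mean of 42.5 CPM (SD 15.8, n = 3) in CPC-EV. TNNT2, MYL7 and the other listed markers did not reach the level for testing in all libraries of a group. No transcript of the endothelium or Wnt target lists reached it, and of the neural list only NES did, which was not called (1.82, SE 1.10). Among the remaining named rows, TRAK2 and RBM24, an RNA-binding protein of the heart, were higher with 1 count in hiPSC-EV (ratios 323 and 131), and GXYLT1 had none (at least 7.60-fold higher). RND3 and PTP4A1 had no count in CPC-EV (at least 30.6-fold and 29.2-fold lower), and MFGE8, SURF4 and ICE1 had 1 (ratios 431, 216 and 214).

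**Figure D5:**
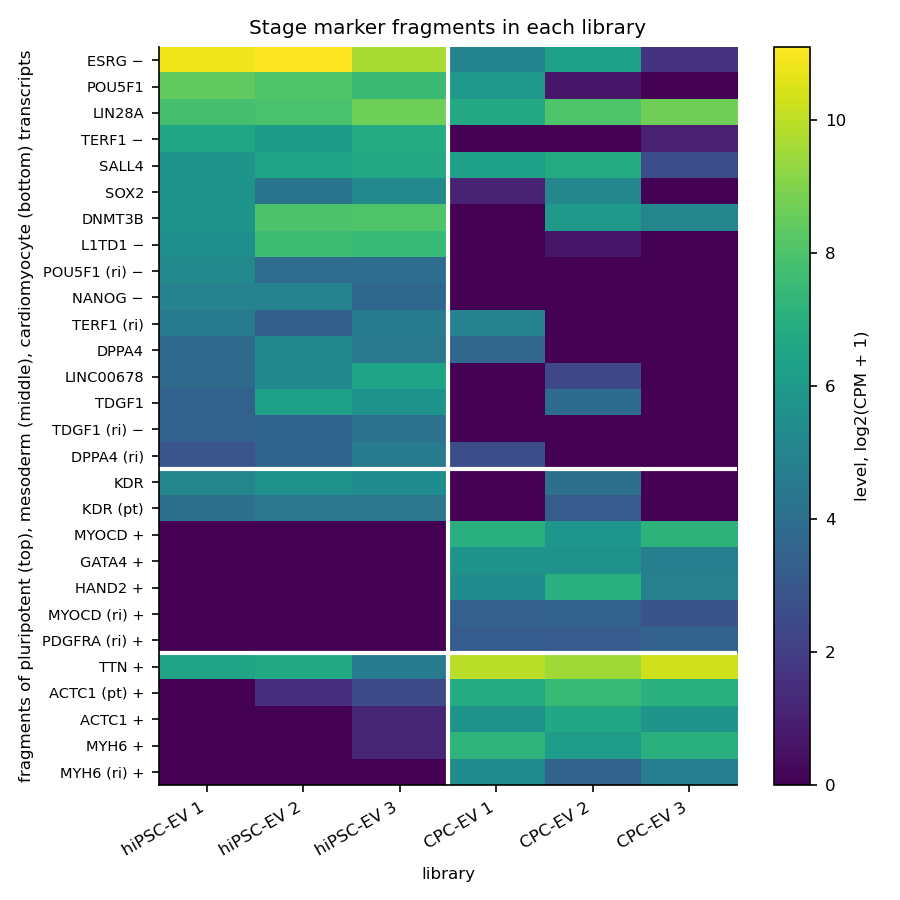
Colour gives the level, log2(CPM + 1), of each tested row of the pluripotency (top), mesoderm and cardiac progenitor (middle) and cardiomyocyte (bottom) lists in each library; + and − mark rows called higher and lower in CPC-EV, and ri and pt mark retained-intron and processed-transcript rows. The called mesoderm rows are dark in all 3 hiPSC-EV libraries, ESRG is brightest in hiPSC-EV, and LIN28A is bright in both groups.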

How the data were processed

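Small RNA libraries of EV were sequenced by the authors, processed with exceRpt 4.6.2 against hg38 and miRBase 21, and deposited as tables of estimated counts per feature for 5 RNA classes, in which reads with several matches are shared out. The authors also deposited RPM values (reads scaled to a common library total), used here for library totals, and a table of TMM-scaled CPM per miRNA (a normalized signal made with edgeR 3.24.0), used here only for its list of miRNA. Library totals ran from 1514392 to 9594408 reads. Columns were assigned to libraries by their labels.

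Counts were rounded to whole numbers. Each class was fitted separately with edgeR 4.0.16 (R 4.3.3) by the quasi-likelihood test with TMM scaling, the 6 libraries alone and Benjamini-Hochberg adjustment over all features tested, which had at least 5 CPM in all 3 libraries of a group. SE are those of the fitted log2 fold change. Shares of counts were compared by exact permutation tests, two-sided. Features without a count in one group were given a bound against 3 counts in the library of that group where these come to the most CPM, and ratios with 1 to 3 counts a 95% counting interval, both covering counting error only. The scripts were tested on simulated data.

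The features named were the most abundant and most changed called ones of each class and the members of gene lists. Members and lists were chosen with earlier results of these data known. Alternatives were other scalings (DESeq2's median-of-ratios factors, library size, counts of all classes), no expression filter, filterByExpr, DESeq2 1.42.0, a replicate block and each library left out.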

Additional observations from a re-analysis of the deposited data

How the results depend on the processing

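The count of 93 called miRNA lay between 75 and 129 with a library left out and at 39 with replicate number as a block, all 39 of them among the 93; it stayed within 1.5 times under the other alternatives. For 248 seeds the counts were 59 to 102 with a library left out and 36 with the block. For miRNA, the deviations of libraries with the same replicate number correlated at 0.11, -0.04 and 0.04, and in no class was every pair above 0.1. With 3 libraries per group these correlations cannot decide whether libraries of the same number were paired, and the labels do not say. The tRNA count (12) was 44 with library size only, 1 with the counts of all 5 classes as library size, 51 without an expression filter, 46 with DESeq2, 1 with the block and 5 to 22 with a library left out. The piRNA count (2) was 0 with edgeR's quasi-likelihood test without an expression filter, with filterByExpr and with the block (9, 2 and 5 at an unadjusted p of at most 0.05), and 1 to 19 with a library left out. The gencode count (337) was 544 with library size only, 591 with the counts of all classes, 62 without a filter, 683 with DESeq2, 0 with filterByExpr and with the block (373 and 593 at an unadjusted p of at most 0.05), and 0 to 659 with a library left out. The circular RNA count (3) was 9 with median-of-ratios factors, 0 with the counts of all classes (115 at an unadjusted p of at most 0.05), 7 with filterByExpr, 41 with DESeq2 and 0 to 129 with a library left out. The cause of these differences was not tested.

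Some features described as not called changed sign under an alternative, among them RNY1 (2 alternatives) and LIN28A (4). With a library left out, 448 values for named features kept their call and 146 lost it; with the block 45 kept it and 54 lost it, and with DESeq2 97 kept it and 1 lost it. Gencode, piRNA, tRNA and circular RNA calls are therefore less firm than those of miRNA. The shallowest library, hiPSC-EV 1, sets the lowest level at which absence could be stated in hiPSC-EV.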
